A study of Mus musculus with 4 samples.

Results

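The genes described here are 10 components of the Hedgehog pathway, measured in the fetal mouse cerebral cortex with and without Cd93. They were chosen by name from the gene name column of both deposited tables, as receptors and decoys (Ptch1, Hhip), co-receptors (Boc, Cdon, Gas1), signal transducers (Smo, Sufu) and transcription factors (Gli1, Gli2, Gli3). All 10 were found, each as 1 protein-coding gene among the 20385 genes listed in both tables, and all 10 were among the 16371 genes tested. The 4 libraries, named WT 1 and WT 4 for wild type and KO 5 and KO 6 for Cd93 KO, were made from total RNA of dissected cortex of C57BL/6 embryos at embryonic day 16. The 2 genotypes share strain and stage, and the labels name no other allele or agent. The labels do not say which part of Cd93 was deleted, nor whether each library came from its own embryo, so p-values measure the spread between these libraries, which may be technical.

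Hedgehog proteins are secreted, lipid-bearing signals. Without them the receptor Ptch1 holds the membrane protein Smo inactive, and Gli2 and Gli3 are kept back by Sufu or trimmed into repressors at the primary cilium. When a ligand binds Ptch1 together with a co-receptor, Smo becomes active, full-length Gli proteins enter the nucleus, and Gli1, Ptch1 and Hhip are turned on, so that the last of these limit the signal again. In the telencephalon Sonic hedgehog patterns the ventral side, and the repressor form of Gli3 is needed for the dorsal side, which becomes the cortex.

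Library totals ran from 16318317 counts in KO 6 to 17586157 in WT 1, and the mitochondrial share from 3.02% in KO 5 to 4.16% in KO 6. The Cd93 counts, 680 and 409 for WT 1 and WT 4 against 111 and 99 for KO 5 and KO 6, follow the labels. Cortical genes were abundant, with Neurod6 at 25279 to 27037 counts. WT 1 stood apart, since the summed level of 18 meningeal and fibroblast markers was 891 CPM there (library-scaled counts, in which 1 count is 0.0563 to 0.0616 CPM) against 64.7 to 137 CPM in the other 3 libraries. For 21 ganglionic eminence and striatum markers it was 1499 CPM against 734 to 920 CPM. In bulk RNA, fewer cells of a type and less RNA per cell cannot be told apart.

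None of the 10 genes passed the test between genotypes, and the pooled difference was small for most of them. By edgeR's quasi-likelihood test every member had an adjusted p of 0.9999, and the smallest unadjusted p was 0.071, for Boc. Over all genes tested, 0.0122% passed (2 genes, both lower in KO), so a count of 0 among 10 is what that background gives. Of the 10, 0 had an unadjusted p under 0.05, against 1.94% of all genes. DESeq2 and limma-voom also called 0 of the 10. Of the members 5 had a higher and 5 a lower pooled value in KO, with a median log2 fold change of 0.01, where all tested genes had a median of -0.003. The sizes, with a median of 0.11 on the log2 scale regardless of sign, lay near the 0.09 of all tested genes. They lay above the median of 0.07 for the 11752 genes with a mean of at least 5 CPM, a cut that every member but Hhip reaches.

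What the members shared was a difference between the 2 KO libraries. All 10 were higher in KO 5 than in KO 6, where 49.3% of all tested genes were. Between WT 1 and WT 4, 4 of the 10 were higher in WT 1, against 50.6% of all genes. This pattern was picked out after the values were seen, and members of a pathway are not replicates of a condition.

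**Figure D1:**
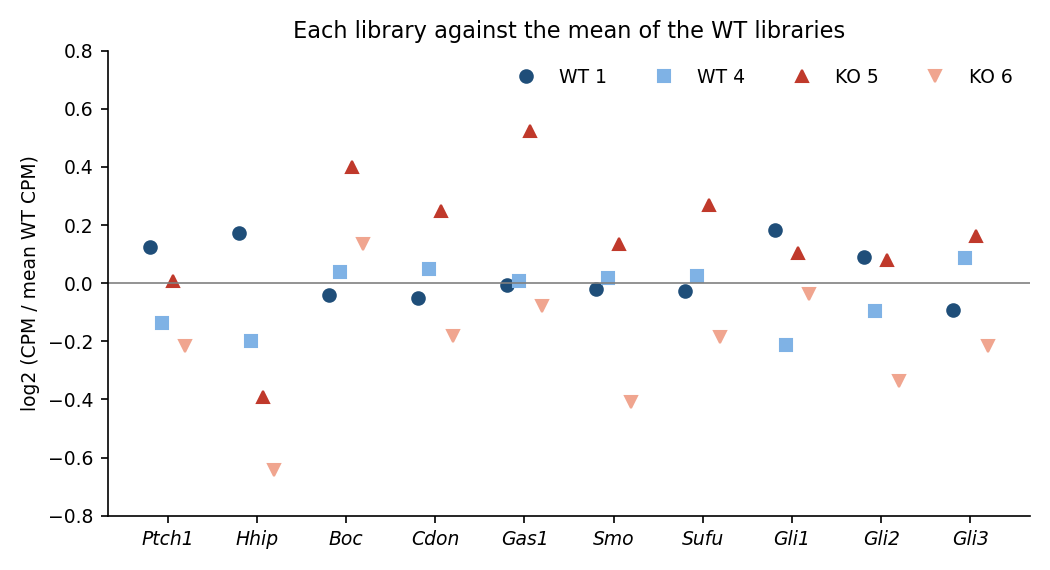
Each point is 1 library's CPM of 1 gene, as a log2 ratio to the mean of the 2 WT libraries; circles and squares are WT 1 and WT 4, upward and downward triangles KO 5 and KO 6. The upward triangle lies above the downward triangle in all 10 genes, and the triangles lie on either side of both WT points in 5 of them (Cdon, Gas1, Smo, Sufu and Gli3).

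In length-corrected level the co-receptors led and the genes that the pathway itself turns on came last. Levels between genes are given as CPM per kilobase of merged exons, averaged over the 4 libraries, with the SD over them. Cdon was at 23.4 ± 2.97 and Gas1 at 19.7 ± 4.12 (SD, n = 4), then Boc at 10.8 ± 1.49. Smo followed at 8.40 ± 1.28 and Sufu at 7.41 ± 0.981. Gli2, at 4.93 ± 0.656, and Gli3, at 4.90 ± 0.578, were about level. Gli1 stood at 1.63 ± 0.191 and Ptch1 at 1.59 ± 0.167, and Hhip at 0.126 ± 0.0308. The ranges over libraries overlapped for the neighbours Cdon and Gas1, Boc and Smo, Smo and Sufu, Gli2 and Gli3, and Gli1 and Ptch1. They did not overlap between Gas1 and Boc, Sufu and Gli2, Gli3 and Gli1, or Ptch1 and Hhip. Merged exons of all annotated isoforms make long models, 14.2 kb for Ptch1 against 2.96 kb for Gas1, so levels per length of Ptch1 are on the low side if few isoforms are used.

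**Figure D2:**
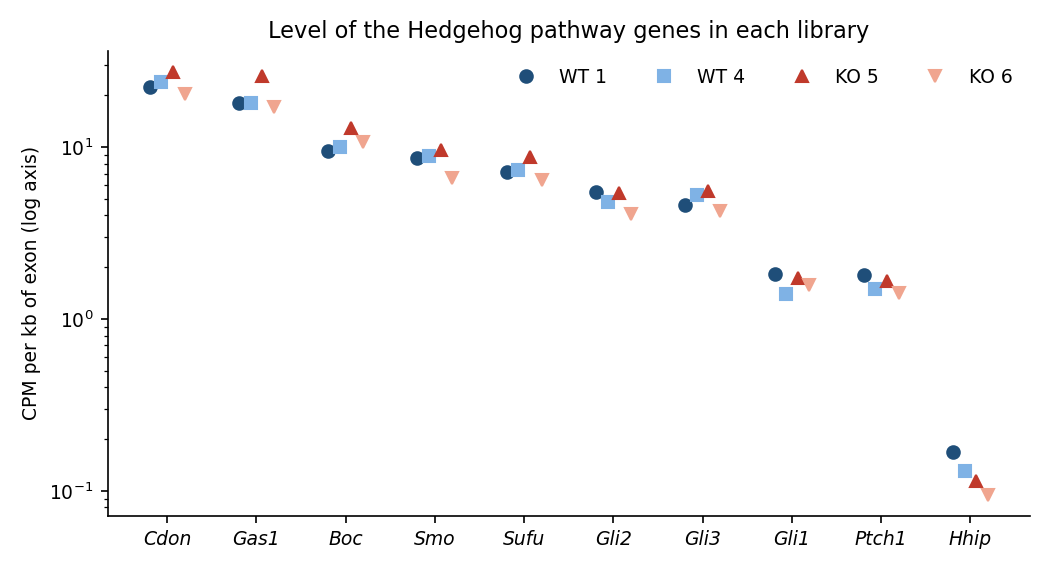
CPM per kilobase of merged exons (log axis) of each gene in each of the 4 libraries, ordered by the mean. Cdon and Gas1 lie between 17.03 and 27.3, Gli1 and Ptch1 between 1.39 and 1.83, and Hhip below 0.2.

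The ligands were barely detected. In the order WT 1, WT 4, KO 5, KO 6, the gene of Sonic hedgehog, Shh, had 5, 1, 3 and 4 counts. Ihh, of Indian hedgehog, had 6, 3, 7 and 4. Dhh, of Desert hedgehog, had 5, 5, 0 and 4 counts. A count of 0 in KO 5 allows up to 3 counts, or 0.171 CPM. All 3 ligand genes fell short of the low-count filter, so a genotype difference in them was not detectable at this depth.

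Ptch1 and Hhip take up Hedgehog at the cell surface, Ptch1 as the receptor and Hhip as a decoy that binds it without passing a signal on. Both are known targets of the pathway. Ptch1 (ENSMUSG00000021466, chromosome 13, 63508328 to 63573598, minus strand) was counted 451 times for WT 1 and 361 for WT 4, against 410 for KO 5 and 325 for KO 6. The genotypes overlapped, since KO 5 lay between the WT libraries. The WT mean of 23.3 ± 2.95 CPM and the KO mean of 21.7 ± 2.39 CPM (SD, n = 2 each) differed by less than either SD. On the log2 scale the difference was -0.10 (SE 0.16), with a 95% interval of -0.48 to 0.28, so folds between 0.717 and 1.21 lie inside it. Without WT 1 it was 0.04 and without KO 6 0.01, so its sign rests on single libraries.

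Hhip (ENSMUSG00000064325, chromosome 8, 79965851 to 80058006, minus strand) was the rarest member, with 27 and 20 counts for WT 1 and WT 4 and 18 and 14 counts for KO 5 and KO 6. Both KO libraries lay below both WT libraries, as in 11.9% of all tested genes. WT averaged 1.35 ± 0.243 CPM and KO 0.945 ± 0.116 CPM (SD, n = 2 each). The log2 fold change was -0.51 (SE 0.40), with a 95% interval of -1.46 to 0.44, the widest of the 10. The log2 ratio computed here was -0.74 for KO 6 to WT 1, the libraries of table A, and -0.17 for KO 5 to WT 4, those of table B. The authors' own values in these tables were -0.84 and -0.18. The fit without WT 1 gave -0.31. Without a prior count the CPM ratios were 0.568 in table A and 0.875 in table B. Their counting intervals included 1, at 0.275 to 1.12 in table A and 0.436 to 1.74 in table B, so the difference was within counting error.

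Promoter sequences are shown for Ptch1 and Hhip, the feedback targets, and for Gas1, the member whose KO libraries lay farthest apart. They come from RefSeq on GRCm38.p6, 250 bases before to 50 bases after a start, 5′ to 3′ on the gene's strand, and capitals mark the GC box GGGCGG or its reverse complement CCGCCC, the motif of Sp1-like factors. The windows are chr13:63565686-63565985 (minus strand) for Ptch1, chr8:80057959-80058258 (minus strand) for Hhip and chr13:60177486-60177785 (minus strand) for Gas1.
Ptch1: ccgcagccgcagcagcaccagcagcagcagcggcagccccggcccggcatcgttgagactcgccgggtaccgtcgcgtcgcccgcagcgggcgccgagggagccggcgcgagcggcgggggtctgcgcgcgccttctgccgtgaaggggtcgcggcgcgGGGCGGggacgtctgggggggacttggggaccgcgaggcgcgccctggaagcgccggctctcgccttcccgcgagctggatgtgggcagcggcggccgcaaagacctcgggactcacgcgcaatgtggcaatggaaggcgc
Hhip: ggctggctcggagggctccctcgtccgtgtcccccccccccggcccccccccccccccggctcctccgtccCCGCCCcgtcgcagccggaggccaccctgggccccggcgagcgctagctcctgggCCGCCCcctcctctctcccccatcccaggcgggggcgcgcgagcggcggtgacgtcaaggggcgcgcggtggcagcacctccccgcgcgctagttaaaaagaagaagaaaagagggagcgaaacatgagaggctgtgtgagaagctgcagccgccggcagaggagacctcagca
Gas1: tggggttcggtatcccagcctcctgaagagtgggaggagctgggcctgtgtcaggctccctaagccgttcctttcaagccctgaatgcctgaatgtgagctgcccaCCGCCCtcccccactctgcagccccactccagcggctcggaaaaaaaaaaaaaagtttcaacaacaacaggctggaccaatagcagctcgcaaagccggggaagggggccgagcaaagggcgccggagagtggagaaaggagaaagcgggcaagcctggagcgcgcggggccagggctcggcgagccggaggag
Of the 10 members 8 matched this table, and Boc and Gli1 did not. A GC box on either strand was in 6 of the 8 windows, and in 35.7% of all 32851 promoter windows of the table. The windows of Ptch1 and Hhip hold 76.3% and 73.7% G and C, that of Gas1 62.3% and that of Cdon 44.7%, against a median of 52.7% over all windows. The windows of Ptch1 and Cdon (chr9:35451826-35452125) sit at starts inside the gene spans of the deposited tables, away from their 5′ ends, so their values describe those internal starts. The Gas1 window lies wholly upstream of its deposited span, whose 5′ end is at 60177365. The core of the Gli binding motif, CCACCCA or its reverse complement TGGGTGG, was in 0 of the 8 windows and in 9.3% of all windows. No match says only that these letters are not within these 300 bases.

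Boc, Cdon and Gas1 are co-receptors that bind Hedgehog beside Ptch1, Boc and Cdon as related proteins of the immunoglobulin superfamily and Gas1 as a protein held by a lipid anchor. Boc was the only member with both KO libraries above both WT libraries, as 11.5% of all tested genes were. Boc (ENSMUSG00000022687, chromosome 16, 44485049 to 44558897, minus strand) was counted 750 and 758 times for WT 1 and WT 4, and 1003 and 773 times for KO 5 and KO 6. KO 5 was well apart, while KO 6 lay just above the WT pair once scaled to depth, at 47.6 CPM against 42.2 and 44.5 CPM. KO exceeded WT by 0.27 on the log2 scale (SE 0.13), with a 95% interval of -0.03 to 0.58. The log2 ratio computed here was 0.17 within table A and 0.36 within table B, and the fitted value without KO 5 was 0.14. Over the alternatives it stayed between 0.14 and 0.41, with adjusted p of 0.929 to 1.

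Cdon (ENSMUSG00000038119, chromosome 9, 35421128 to 35507652, plus strand) was the most abundant member, at 3049 and 3125 counts for WT 1 and WT 4, 3694 for KO 5 and 2542 for KO 6. The KO libraries lay on either side of the WT pair. WT averaged 178 ± 8.51 CPM and KO 184 ± 38.3 CPM (SD, n = 2 each). The fitted log2 difference was 0.05 (SE 0.16, 95% interval -0.33 to 0.43), and -0.18 without KO 5. Its ratio of KO 5 to KO 6 was 1.35, with a 95% counting interval of 1.28 to 1.42. That spread within the KO exceeded the one between WT 1 and WT 4, whose ratio was 0.934 (0.889 to 0.983).

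Gas1 (ENSMUSG00000052957, chromosome 13, 60174405 to 60177365, minus strand) was counted 942 (WT 1), 911 (WT 4), 1341 (KO 5) and 818 (KO 6) times. The WT libraries nearly coincided, at 53.0 and 53.5 CPM, while KO 5 was at 76.6 and KO 6 at 50.4 CPM. The log2 fold change of 0.25 (SE 0.19, 95% interval -0.21 to 0.72) therefore came from 1 library, and without KO 5 it was -0.078. The ratio of KO 5 to KO 6 was 1.52 (95% counting interval 1.39 to 1.66), the highest of the members. A lincRNA on the opposite strand, Gm48488, shares exon sequence with Gas1 and was counted 7 to 10 times a library. Whether counting used strand is not given in the sources used here, so reads of such partners cannot be told apart.

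**Figure D3:**
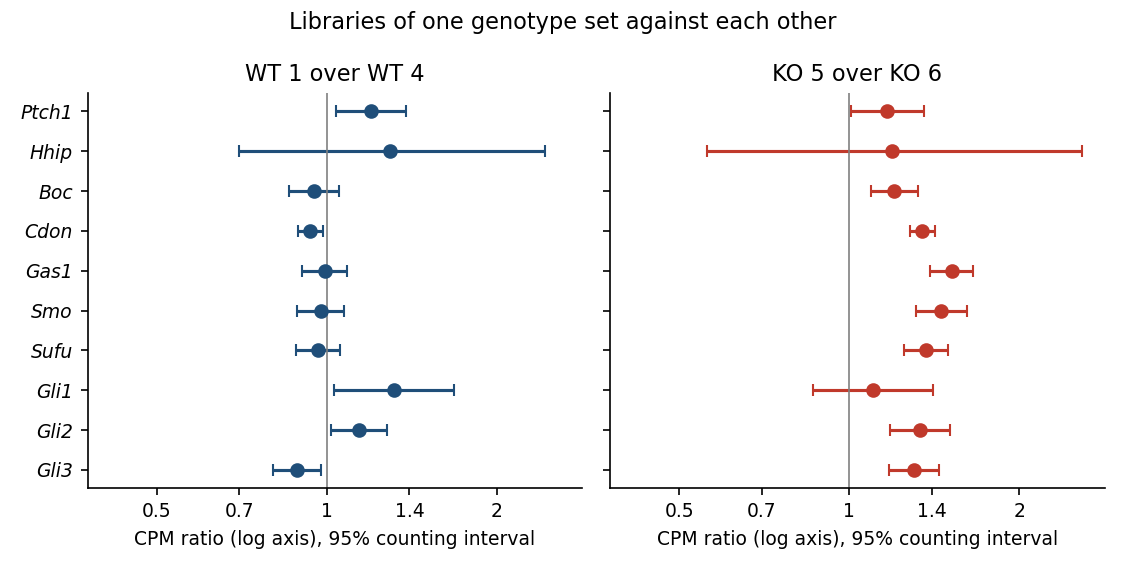
CPM ratio of WT 1 to WT 4 (left) and of KO 5 to KO 6 (right) for each gene on a log axis, with 95% exact binomial intervals that cover counting error only. On the right all 10 ratios are above 1, from 1.10 to 1.52, and 8 intervals exclude 1; on the left 5 intervals exclude 1 and ratios run from 0.884 to 1.31.

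Smo and Sufu carry the signal from the membrane to the Gli proteins, Smo as the seven-pass activator and Sufu as the inhibitor that binds Gli proteins in the cytoplasm. Smo (ENSMUSG00000001761, chromosome 6, 29735503 to 29761365, plus strand) gave 861 and 846 counts for WT 1 and WT 4, 943 for KO 5 and 600 for KO 6. KO 6 was the low library, at 37.0 CPM, against 48.4 to 53.8 CPM in the others. Smo averaged 49.1 ± 0.887 CPM for WT and 45.4 ± 11.9 CPM for KO (SD, n = 2 each). Its log2 fold change was -0.11 (SE 0.18, 95% interval -0.55 to 0.32), and without KO 6 it was 0.14.

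Sufu (ENSMUSG00000025231, chromosome 19, 46396896 to 46488804, plus strand) gave 974 and 967 counts for WT 1 and WT 4, 1177 for KO 5 and 797 for KO 6. Like Smo it had close WT libraries, at 54.8 and 56.8 CPM, between the KO libraries at 67.2 and 49.1 CPM. Sufu had a log2 fold change of 0.06 (SE 0.16, 95% interval -0.32 to 0.44), and -0.18 without KO 5. The activator and the inhibitor thus lay on the same side in each KO library.

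The Gli genes encode the zinc-finger transcription factors at the end of the pathway. Gli2 acts mainly as an activator, Gli3 mainly as a repressor, and Gli1 is an activator that the pathway itself turns on. Gli1 (ENSMUSG00000025407, chromosome 10, 127329882 to 127341974, minus strand) was counted 162 times for WT 1, 118 for WT 4, 151 for KO 5 and 127 for KO 6, so that both KO libraries lay between the WT libraries. Means were 8.02 ± 1.54 CPM for WT and 8.22 ± 0.560 CPM for KO (SD, n = 2 each). Gli1 had a log2 fold change of 0.04 (SE 0.23), and its 95% interval of -0.53 to 0.60 leaves room for folds from 0.694 to 1.51. It was 0.25 without WT 1, -0.14 without WT 4 and -0.03 without KO 5. Arhgap9 on the opposite strand shares exon sequence with Gli1 and had 4 to 7 counts. So does the antisense gene Gm47200, which is not among the genes listed in both tables, so its reads are not known here.

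Gli2 (ENSMUSG00000048402, chromosome 1, 118834132 to 119053619, minus strand) was counted 666, 560, 651 and 452 times, in the order WT 1, WT 4, KO 5, KO 6. Its KO 6 library was the low one, at 27.9 CPM against 32.9 to 37.5 CPM in the other 3. The pooled log2 difference was -0.11 (SE 0.17, 95% interval -0.52 to 0.29), and 0.083 without KO 6. Gli3 (ENSMUSG00000021318, chromosome 13, 15463235 to 15730026, plus strand) was counted 788, 854, 927 and 660 times in that order. It had the pooled value nearest 0 of the 10, a log2 fold change of -0.01 (SE 0.15, 95% interval -0.38 to 0.36), with means of 47.3 ± 4.12 CPM for WT and 46.8 ± 8.65 CPM for KO (SD, n = 2 each). That value was 0.08 without WT 4 and 0.17 without KO 6. Gm6556, on the opposite strand, overlaps Gli3 exons and had 15 to 19 counts.

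Within the 2 deposited tables, which each pair 1 KO with 1 WT library, 8 of the 10 members went opposite ways. These 8 were lower in KO in table A and higher in table B, as 27.3% of all tested genes were. Boc was higher in both tables (22.3% of all genes) and Hhip lower in both (22.9%). Among the receptors and co-receptors, the log2 ratios for tables A and B were -0.34 and 0.14 for Ptch1, -0.13 and 0.20 for Cdon and -0.07 and 0.52 for Gas1. They were -0.39 and 0.12 for Smo and -0.16 and 0.24 for Sufu. For Gli1 they were -0.22 and 0.31, for Gli2 -0.43 and 0.18 and for Gli3 -0.12 and 0.08. The median log2 ratio of the members was -0.19 for table A and 0.19 for table B, where all tested genes had medians of -0.001 and -0.002. A block for the table in the edgeR model left 0 of the 10 past the threshold. In the authors' deposited table A, 5 members had an adjusted p under 0.05 (Smo, Gli2, Cdon, Ptch1 and Sufu, all lower in KO). In the authors' deposited table B, 4 had one (Gas1, Cdon, Boc and Sufu, all higher in KO). Those p-values compare 1 library with 1 library, and Cdon and Sufu are on both lists with opposite signs. The share of all deposited genes under that threshold is not given here. These counts therefore do not show whether the members stand out. No member reached a 2-fold change in the authors' deposited tables.

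**Figure D4:**
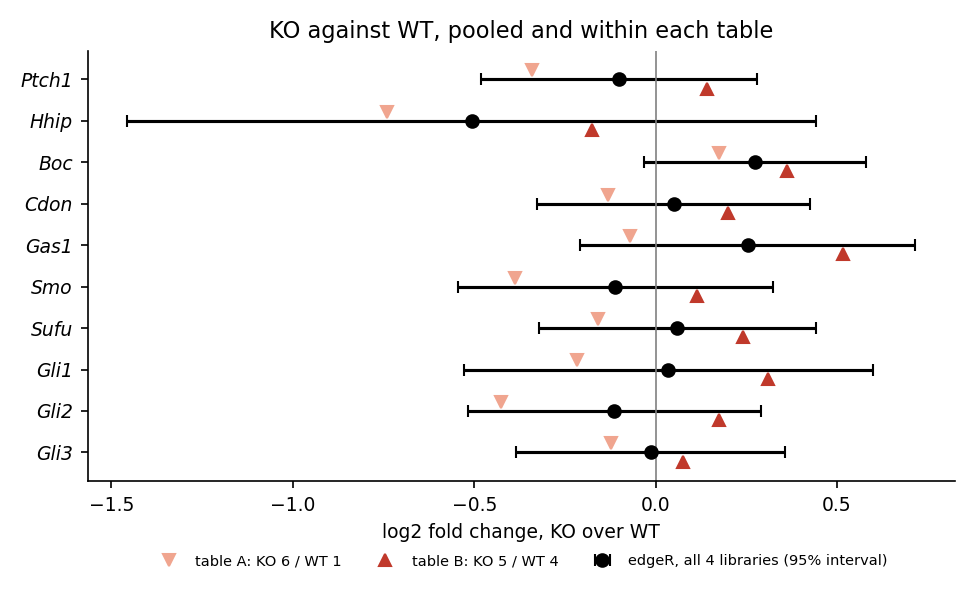
Black points are log2 fold changes of KO over WT by edgeR with all 4 libraries, with 95% intervals; triangles are the log2 CPM ratios within table A (KO 6 over WT 1) and table B (KO 5 over WT 4). All 10 intervals include 0, and in 8 genes the triangles lie on opposite sides of 0.

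The flanking of the WT pair by the KO libraries was set against all tested genes and against those above a low-abundance cut. KO 6 lay below and KO 5 above both WT libraries in 5 of the 10 members, in 10.7% of all tested genes, and in 12.6% of the 11752 genes with a mean of at least 5 CPM, which 9 of the members reach. The reverse order occurred in 0 of the 10 and in 11.3% of all genes. Of 17 radial glia markers, Gli3 among them, 12 were higher in KO 5 than in KO 6 and 5 had the flanking order. Their summed level was 2778 CPM in KO 5 and 2564 CPM in KO 6, and 2915 and 2598 CPM in WT 1 and WT 4. The 15 cortical markers summed to 5112 CPM in KO 5 and 4628 CPM in KO 6, and the ganglionic eminence markers to 734 and 874 CPM. None of these markers was at 0 in any library. KO 6 also had the fewest counts and the highest mitochondrial share. The part of cell makeup, depth or RNA quality in the members' order was not tested.

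The other genes of the pathway, in 5 lists, also gave 0 calls. Of 83 further names 76 were in both tables and 70 were tested, 36 with a higher and 34 with a lower value in KO and a median log2 fold change of 0.01. Their smallest adjusted p by edgeR was 0.9999, and 1 had an unadjusted p under 0.05. Both KO libraries were above both WT libraries in 3 of them and below in 12, where 11.5% and 11.9% of all tested genes were. KO 5 was above KO 6 in 47 of the 70, against 49.3% of all tested genes. The flanking order was seen in 10 of the 70, against 10.7% of all tested genes.

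Among 7 tested genes of ligand processing and release the median was 0.04, with 4 higher and 3 lower. Disp1, the gene of the protein that releases the lipid-bearing ligand, had a log2 fold change of -0.26 (SE 0.18). Its KO libraries were both below the WT libraries, as in 11.9% of all tested genes. Among the pathway genes named below, Scube2, Gpc6, Gpr161, Efcab7, Ofd1, Btrc and Nkx2-1 had this order too, and Arrb2 the reverse. Scube2, of a secreted carrier that helps release, had 18 and 12 counts for WT 1 and WT 4, 4 for KO 5 and 11 for KO 6, a log2 fold change of -0.93 (SE 0.61). Its value became -0.34 when KO 5 was left out and -1.88 when KO 6 was. Disp3, a relative of Disp1, stood at 0.15 (SE 0.15), and at 0.0024 without WT 1 and 0.0067 without KO 5.

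Among 8 tested genes of other surface proteins the median was -0.11, 3 higher and 5 lower. Gpc3, of a glypican that competes with Ptch1 for the ligand, had 300 counts in WT 1 against 82, 93 and 58 in WT 4, KO 5 and KO 6. The pooled log2 difference of -1.29 (SE 0.56) split between the tables, at -2.20 for table A and 0.14 for table B. It was -0.11 without WT 1, and edgeR called it without WT 4, at -1.92 with an adjusted p of 5.21e-05. WT 1 was also the library with the high meningeal markers, and their part in this value was not tested. Hspg2, of the proteoglycan perlecan, was at -0.30 (SE 0.21) and 0.013 without WT 1, and Gpc6, of another glypican, at -0.21 (SE 0.16).

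Genes of the primary cilium had a median of 0.01 over 22 tested, 12 higher and 10 lower. Kif7, of the ciliary kinesin that organizes Gli proteins at the tip, stood at -0.03 (SE 0.18), 0.06 without WT 1 and 0.13 without KO 6. Gpr161, of the ciliary receptor that keeps the pathway off, stood at -0.12 (SE 0.10). Efcab7, of a protein that anchors the Evc complex, stood at -0.28 (SE 0.18), Ofd1, of a basal body protein, at -0.19 (SE 0.12), and Ift140, of a transport protein of the cilium, at 0.15 (SE 0.12). The kinases, ubiquitin ligases and G proteins that set Gli processing had a median of 0.02 over 20 tested, 12 higher and 8 lower. Dyrk2, of a kinase, stood at 0.16 (SE 0.14) and at -0.0042 without WT 1, Arrb2, of beta-arrestin-2, at 0.11 (SE 0.10), and Btrc, of a ubiquitin ligase subunit that binds phosphorylated Gli proteins, at -0.11 (SE 0.11).

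Genes that Hedgehog turns on in other tissues had a median of -0.11 over 14 tested, 5 higher and 9 lower. Nkx2-1, a transcription factor gene of the medial ganglionic eminence that depends on Sonic hedgehog, had 267 and 43 counts for WT 1 and WT 4, and 10 and 23 for KO 5 and KO 6. With all 4 libraries the difference of -3.14 (SE 0.88) was not called, and it was -3.30 for table A and -1.94 for table B. The fit without WT 1 gave -1.35. It passed with the table as a block, at -2.93 with an edgeR adjusted p of 0.0108, and without WT 4, at -3.92 with 1.44e-08. The ganglionic eminence and striatum markers, a list without Nkx2-1, were high in the same WT 1 library. A separate list of medial ganglionic eminence and interneuron markers, which includes Nkx2-1, was not. Its sum ranged from 628 CPM (KO 5) to 714 CPM (KO 6), and WT 1 at 656 CPM was level with WT 4 at 655 CPM. The part of cell makeup in the Nkx2-1 value was not tested. Ccnd2, of cyclin D2, stood at -0.32 (SE 0.17), with 7084 counts in WT 1 and 4234 to 5067 in the others, and at -0.06 without WT 1 and -0.53 without WT 4. Snai1, of a zinc-finger repressor, stood at -0.62 (SE 0.52), and at 0.16 without WT 1.

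**Figure D5:**
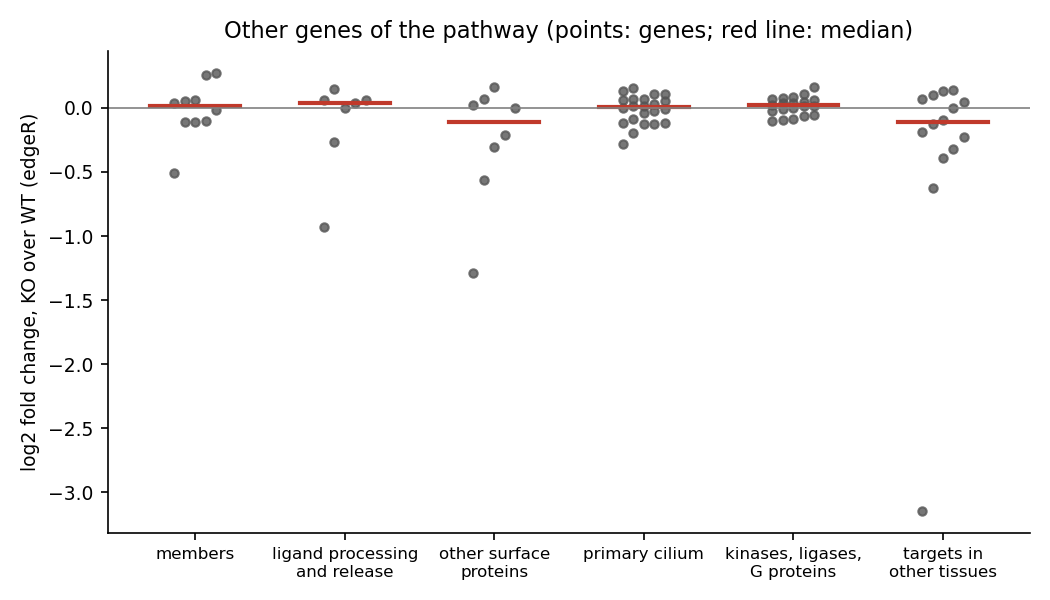
Log2 fold changes of KO over WT by edgeR for the 10 members and for the tested genes of 5 further pathway lists; each point is a gene and the red line a list's median. The medians lie between -0.11 and 0.04, and the point below -3 is Nkx2-1.

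For the genes that the pathway itself turns on, the nearest profiles over the 4 libraries were sought among 15149 tested genes with a mean log2 CPM of at least 0, as the root mean square difference of centred log2 CPM. Nearest to Gli1 were 3110062M04Rik (0.0159), Nck1 (0.0176) and Foxo4 (0.0206). Nearest to Ptch1 were Dlgap5 (0.0110), H6pd (0.0157) and Pkn3 (0.0168). Nearest to Hhip were Lat (0.0182), Rftn2 (0.0348) and 9130019O22Rik (0.0367). The neighbours only describe profiles over 4 libraries, and none of the 3 members was among the nearest of another.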

How the data were processed

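RNA of dissected cortex was made into TruSeq libraries and sequenced, per the labels' protocols. The authors deposited whole counts per Ensembl gene in 2 tables, A (KO 6, WT 1) and B (KO 5, WT 4), together with a log2 fold change and an adjusted p-value for 1 library against 1 library, per the file headers. A table lists only genes with reads. Per the submitters' processing notes, the tools were HTSeq 0.6.0, TopHat2 2.0.12 and Bowtie2 2.2.3, their roles not given, and the build mm9. Of the positions in both tables, 91.5% have the span of GENCODE mouse release 21 on GRCm38, and they are printed as deposited. The 4 deposited columns of normalized values were not used.

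Counts of the 20385 genes in both tables were fitted by edgeR 4.0.16 under R 4.3.3 (filterByExpr, TMM factors of 0.994 to 1.012, quasi-likelihood test of genotype, two-sided, Benjamini-Hochberg adjustment over 16371 genes, threshold 0.05), and plotted in Python 3.11.15 with matplotlib 3.10.9. The replicate numbers do not pair the genotypes. SE and 95% intervals come from that fit. CPM are scaled by the TMM factors, and within-table ratios add a prior count of 2 before the log2. Counting intervals of library ratios are exact binomial (Clopper-Pearson). Counting intervals and the floor of 3 counts cover counting error alone, as no molecular identifiers mark copies of a molecule. Exon lengths are those of GENCODE. Alternatives were DESeq2 1.42.0, limma-voom (limma 3.58.1), other scaling, no filter, the table as a block, and each library left out. The fit was tested on simulated data. The members, lists and tests were chosen with earlier results of these data known. Genes named beside the 10 members are Cd93, the 3 of smallest p in each pathway list, the ligands, Kif7 and Gpr161, the 3 nearest profiles of Gli1, Ptch1 and Hhip, and Neurod6 as an abundant cortical marker. The other abundant markers enter only as sums over their lists, and 1 further gene is not reported here. Opposite-strand partners were chosen for overlap of exons. Of these, Gm47200 (Gli1) and Gm27820 (Hhip) are not among the genes listed in both tables, so no counts are given for them.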

Additional observations from a re-analysis of the deposited data

How the results depend on the processing

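With 2 libraries per genotype only large differences could pass, and a large one could also fail. Cd93 itself, at a log2 fold change of -2.32 (SE 0.25), was not called by edgeR, with an adjusted p of 0.21. The absence of calls among the members therefore does not show that their levels were unchanged. Of the 10 members 0 passed under any of the 10 alternatives. Each kept its direction under the 6 that used all 4 libraries, and 11 of 40 values with a library left out went the other way. The log2 fold change with a library left out ran from -0.22 to 0.036 for Ptch1, -0.18 to 0.25 for Cdon, -0.078 to 0.53 for Gas1, -0.41 to 0.14 for Smo, -0.18 to 0.27 for Sufu, -0.14 to 0.25 for Gli1, -0.34 to 0.083 for Gli2 and -0.21 to 0.17 for Gli3. Of the other named genes it ran from -0.56 to 0.013 for Hspg2, -0.0042 to 0.35 for Dyrk2, -1.11 to 0.16 for Snai1 and -0.20 to 0.13 for Kif7. Without a change of sign it ran from -1.88 to -0.34 for Scube2, -0.41 to -0.13 for Disp1, 0.0024 to 0.31 for Disp3, -0.30 to -0.10 for Gpc6, 0.04 to 0.26 for Ift140 and -0.53 to -0.06 for Ccnd2. Among all genes the count of 2 calls was 29 with the table as a block, 8 by DESeq2 and, with a library left out, 5 without KO 5, 8 without KO 6, 44 without WT 1 and 312 without WT 4, and the cause was not tested. Among the other pathway genes it was 1 with the table as a block (Nkx2-1) and 0 to 2 with a library left out (Nkx2-1 and Gpc3 without WT 4). The level of Cdon was 1.20 times that of Gas1 per kilobase and 3.13 times without length correction, since the exons of Gas1 are shorter. The genotypes share no replicate numbers, so the deposited table was the only pairing fitted.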
